A study of Mus musculus with 12 samples.

Results

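The 34 genes described here encode the proteins that copy DNA: the MCM helicase and the factors that load and start it, the polymerases and clamp of the replication fork, the enzymes that supply nucleotides, proteins that package and mark new chromatin, and regulators of entry into S phase. They were listed by name and function, with earlier results of these data known. The levels are linear signal intensities of probe sets on Affymetrix arrays of mouse bone marrow macrophages, and each gene was represented by the probe set with the highest mean signal among those whose only symbol was that gene. Of the 34 genes, 33 had such a probe set, out of 18193 genes represented in this way in the whole series. No value was taken for Chaf1a. A probe set was tested if 2 or more of the 12 arrays gave it a signal over that array's median, and all 33 met this. The signal of 28 genes was over the median on all 12 arrays, that of Tyms, Orc1, Chaf1b, Cdc6 and Mcm10 was not, and 6 of the 33 genes had a single probe set.

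The macrophages came from wild-type mice (WT) and from mice whose IRAK4 kinase was inactive (KD, labelled IRAK4 kinase dead). IRAK4 is a kinase that the adaptor MyD88 recruits when a Toll-like receptor or the receptor of interleukin-1 is engaged. Cells of each strain were kept for 4 h without stimulus, or were given 1 µg/ml of lipopolysaccharide (LPS, an outer membrane component of Gram-negative bacteria that Toll-like receptor 4 senses) for 1 h or for 4 h, with 2 biological replicates in each of the 6 groups. All groups were grown with fetal calf serum and medium conditioned by L-929 cells, which is used as a source of macrophage colony-stimulating factor. The unstimulated cells were sampled after 4 h, so the 1 h comparison differs in time in culture as well as in LPS. The labels do not say whether replicates came from separate animals, how the mice were made or how old they were, and the p-values measure only the spread between arrays of a group. Fewer cells in S phase and less RNA per cell cannot be told apart in such samples.

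In a cell about to divide, the origin recognition complex with Cdc6 and Cdt1 loads rings of Mcm2 to Mcm7 onto DNA in G1 phase. At the start of S phase, kinases, Cdc45 and the GINS complex turn these rings into active helicases, DNA polymerase alpha with primase lays down primers, and the clamp Pcna, loaded by replication factor C, holds the polymerases that extend them. Most of the genes are switched on together before S phase by E2F transcription factors, which the retinoblastoma protein restrains until cyclin-dependent kinases phosphorylate it. Bone marrow macrophages divide while colony-stimulating factor is present, and LPS is known to stop that division.

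Because these genes are textbook targets of E2F, the promoter sequences of those called higher in KD in all 3 conditions are shown here, 5′ to 3′ on the strand of the gene, from RefSeq on mouse assembly GRCm38.p6. Each ends just before the transcription start or, for Mcm5, 42 bases before it. Capitals mark the letters TTCCCGC or TTGGCGC or TTCGCGC or TTGCCGC on either strand, 4 forms of the core that E2F proteins bind, and matches can overlap. Mcm5 encodes a subunit of the helicase ring, and the stretch lies at chr8:75109259-75109467 on the plus strand. Mcm6 encodes another subunit (chr1:128359706-128359955, minus strand). Rrm2 encodes the small subunit of ribonucleotide reductase, which makes deoxyribonucleotides (chr12:24708004-24708253, plus strand). Uhrf1 encodes a protein that recognises hemimethylated DNA behind the fork and brings in the maintenance methyltransferase (chr17:56303087-56303336, plus strand). The fifth gene of that kind, Fen1, is not printed because its window overlaps the neighbouring gene Tmem258. That window, at the start site farthest upstream, held 0 matches. Fen1 has 2 windows, and the gene counts below take a match in any window.
Mcm5: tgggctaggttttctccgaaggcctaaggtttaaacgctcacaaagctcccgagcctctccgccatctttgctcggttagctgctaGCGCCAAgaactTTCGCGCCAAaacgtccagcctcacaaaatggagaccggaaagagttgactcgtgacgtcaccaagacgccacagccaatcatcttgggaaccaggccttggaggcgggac
Mcm6: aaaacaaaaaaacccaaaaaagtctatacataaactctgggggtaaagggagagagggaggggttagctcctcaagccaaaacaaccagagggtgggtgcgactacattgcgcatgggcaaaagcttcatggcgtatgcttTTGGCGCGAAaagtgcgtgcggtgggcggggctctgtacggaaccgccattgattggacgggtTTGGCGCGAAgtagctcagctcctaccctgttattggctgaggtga
Rrm2: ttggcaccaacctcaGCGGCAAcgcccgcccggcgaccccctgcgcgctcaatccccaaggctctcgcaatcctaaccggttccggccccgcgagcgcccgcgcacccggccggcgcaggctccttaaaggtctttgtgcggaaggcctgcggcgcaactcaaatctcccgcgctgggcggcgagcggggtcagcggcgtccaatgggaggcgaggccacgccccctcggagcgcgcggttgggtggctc
Uhrf1: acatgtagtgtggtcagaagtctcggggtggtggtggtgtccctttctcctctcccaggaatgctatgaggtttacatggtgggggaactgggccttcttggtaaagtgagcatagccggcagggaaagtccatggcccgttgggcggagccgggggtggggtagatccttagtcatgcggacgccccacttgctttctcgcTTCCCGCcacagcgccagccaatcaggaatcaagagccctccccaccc

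The Mcm5 stretch held 3 matches between positions -164 and -143 relative to the start, and the Mcm6 stretch held 4, in 2 pairs of overlapping matches that begin at -109 and -46. Rrm2 and Uhrf1 held 1 match each, beginning at -235 and -48. Promoter windows of 300 bases, from 250 before to 50 after the start, were found for 30 of the 34 genes. Mcm4, Gins1, Gins2 and Ccne2 had none in the table used. At least 1 of the 4 letter strings was present in 19 of these 30 genes (63.3%), against 10.9% of all 27025 genes with such windows and 13.7% of protein-coding genes. The letters CCAAT, in either direction, were found in 63.3% of the replication genes, 41.1% of all genes and 42.3% of protein-coding genes. For the GC box letters GGGCGG these shares were 76.7%, 38.2% and 49.2%. Of the measured genes with a window, 18 had E2F letters and 11 did not. In KD against WT at 4 h of LPS, 9 of the 18 and 2 of the 11 were called higher, as were 3.13% of all tested probe sets, with median log2 differences of 0.66 and 0.40. From 1 h to 4 h of LPS in WT, 8 of the 18 and 4 of the 11 fell, as did 8.74% of all tested probe sets, with medians of -0.61 and -0.63. A match of letters describes the window and is not a measured binding site.

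The arrays were alike in scale, with a mean of 150 after trimming 2% of values from each end, but the median signal ranged from 18.9 to 22 on WT arrays and from 24.2 to 26.9 on KD arrays. Between replicates, Spearman's correlation over tested probe sets was 0.879 to 0.913. Replicate 1 of unstimulated KD had the largest excess of 3′ over 5′ control signal, with log2 ratios of 1.35 for Gapdh and 3.04 for Actb. No probe set carried the symbol Irak4, so the strain labels were not checked with that gene, whose transcript need not change in a kinase-dead animal. Of 10 macrophage markers 9 were measured. All 9 were above the array median on both arrays of each group except WT at 4 h, where 8 were. Itgam was the dimmest, with signals of 11.8 to 88.8. The summed signal of the 9 markers was 18528 to 19115 in unstimulated WT and 21985 to 26253 in unstimulated KD. In WT and KD in that order, it was 20592 to 23478 and 24021 to 24147 at 1 h. At 4 h it was 20944 to 22565 and 20577 to 22078. The summed signal of the 8 stromal markers (Col1a1, Col1a2, Col3a1, Col6a1, Pdgfrb, Thy1, Dcn and Lum) was 2854 to 2858 in unstimulated WT and 1254 to 1585 in unstimulated KD. It was 2881 to 2965 in WT at 1 h and 2068 to 2567 in KD, and 2072 to 2288 and 2294 to 2693 at 4 h. None of the 4 erythroid or 5 T and NK cell markers measured was above the array median on both arrays of any group. Of 6 progenitor markers 1 to 3 were, of 5 B cell markers 1 (Ebf1) and of 7 neutrophil markers at most 1.

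**Figure D1:**
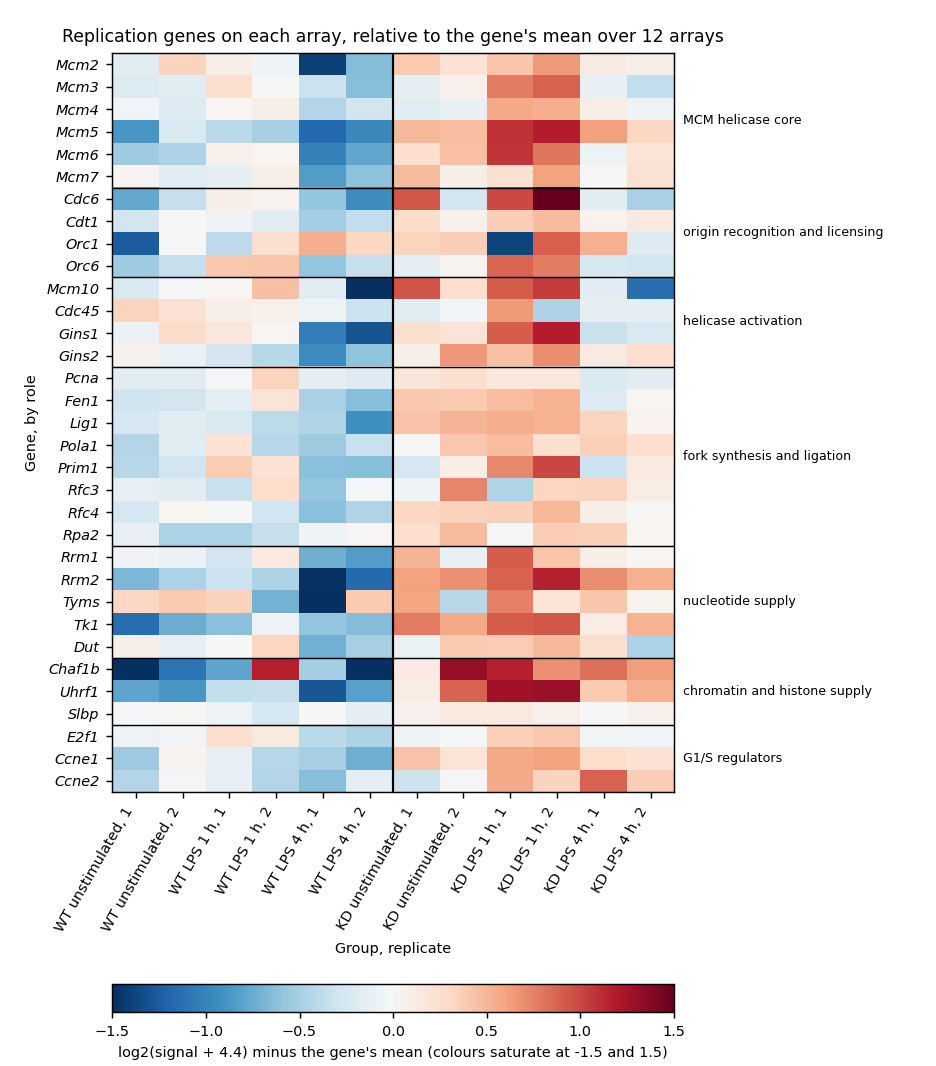
Log2(signal + 4.4) of the 33 measured replication genes (rows, grouped by role) on the 12 arrays (columns, 2 per group), shown as the difference from each gene's mean over the 12 arrays. The median of these differences over the 33 genes lies between -0.62 and -0.57 on the WT arrays at 4 h of LPS, the lowest, and between 0.57 and 0.60 on the KD arrays at 1 h, the highest.

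In each condition a share of the replication genes was higher in KD than in WT macrophages and none was called lower. Without LPS 8 of the 33 genes were called higher in KD and 0 lower, where 5.25% of all 27931 tested probe sets were called, 2.37% higher and 2.87% lower. At 1 h of LPS 11 were higher and 0 lower (background 1.11%, of which 0.573% higher and 0.533% lower), and at 4 h 15 were higher and 0 lower (5.37%, of which 3.13% higher and 2.24% lower). The median log2 difference, KD minus WT, of the 33 genes was 0.39, 0.59 and 0.59 in the 3 conditions, beside 0.03, 0.05 and 0.08 over all tested probe sets. The difference was above 0 for 30, 31 and 31 of the 33 genes, whether or not they passed the test, against 52.6%, 56% and 58.7% of all probe sets. Called means a Benjamini-Hochberg adjusted p under 0.05 in limma over all tested probe sets. The variance that limma shares between probe sets followed their mean signal here. With a shared variance that does not, the counts fell to 1 (Rrm2), 0 and 4 (Mcm5, Mcm6, Rrm2 and Uhrf1), beside 0.247%, 0.0609% and 1.8% of all probe sets. After quantile normalization, which gives every array the same distribution, the counts were 8, 11 and 11, and the medians over all probe sets were -0.003, -0.004 and 0.013. Bright probe sets were called more often, and among the 12915 that were above the 75th percentile of an array on at least 2 arrays 14.1%, 3.1% and 13% were called, beside 9, 11 and 16 of the 26 replication genes that passed that stricter filter.

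A total of 5 genes, Mcm5, Mcm6, Rrm2, Uhrf1 and Fen1, were called higher in KD in all 3 conditions, as were 0.186% of all probe sets. For 8 genes, Mcm5, Rrm2, Tk1, Cdt1, Gins2, Uhrf1, Lig1 and Ccne1, each of the 6 KD arrays was above each of the 6 WT arrays, which held for 1.2% of all probe sets. In the opposite order, each KD array below each WT array, were 0.297% of all probe sets. Stromal marker signal differed between the strains in the same comparisons, with list medians of -0.95 without LPS, -0.44 at 1 h and -0.06 at 4 h, and the stromal sums of the strains did not overlap in any condition. They were lower in KD without LPS and at 1 h, and higher in KD at 4 h. At 4 h the stromal marker called was Col6a1, higher in KD by 1.01 ± 0.16. Its signals were 381.5 and 431.5 in WT against 818.8 and 823.4 in KD. Without passing the test, Col3a1 had 0.48 ± 0.22 there. Col1a1 (-0.04 ± 0.14), Col1a2 (-0.09 ± 0.19), Pdgfrb (-0.43 ± 0.21) and Dcn (-1.08 ± 0.43) lay below 0 and were not called. In unstimulated cells the macrophage markers Csf1r (0.44 ± 0.10), Lyz2 (0.50 ± 0.10) and Cd14 (0.40 ± 0.08) were called higher in KD and Mrc1 (-1.21 ± 0.14) lower. Array medians were higher in KD as well. The part of these in the strain difference of the replication genes was not tested.

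Of the 6 subunits of the helicase ring, 2 were higher in KD without LPS, 4 at 1 h and 5 at 4 h. For Mcm5 signals were 91.4 and 146 without LPS, 129 and 119.8 after 1 h and 73.8 and 85.8 after 4 h in WT, against 242 and 237, 369 and 395 and 265 and 214 in KD. The lowest KD array was above the highest WT array. The log2 difference was 1.03 ± 0.20 (SE) without LPS (limma adjusted p = 0.00563), 1.59 ± 0.20 at 1 h (adjusted p = 0.000283) and 1.53 ± 0.20 at 4 h (adjusted p = 9.84e-05), the last a 2.89-fold difference. With a probe set of Mcm5 that has no suffix for cross-hybridisation, the call was lost in each condition. Mcm5 has another 2 tested probe sets, both dimmer. They were also higher in KD, with log2 differences of 0.51 and 0.87 without LPS, 0.87 and 0.93 at 1 h and 1.28 and 0.23 at 4 h, none of which passed the test.

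For Mcm6 signals were 128 and 135 without LPS, 197 and 191 after 1 h and 90.6 and 107 after 4 h in WT, against 223 and 258, 401 and 331 and 178 and 216 in KD. Within each condition both KD arrays were above both WT arrays. The differences were 0.85 ± 0.17 (adjusted p = 0.00735), 0.89 ± 0.17 (adjusted p = 0.0136) and 0.96 ± 0.17 (adjusted p = 0.00232). A second bright probe set of Mcm6 was also called higher at 1 h (0.99 ± 0.19) and 4 h (1.41 ± 0.19), and had 0.18 ± 0.19 without LPS, which did not pass the test.

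Mcm2, Mcm3, Mcm4 and Mcm7, the other measured subunits of the ring, were called in 1 or 2 conditions each. For Mcm2 signals were 95.6 and 137 without LPS, 115 and 102 after 1 h and 38.1 and 67.2 after 4 h in WT, against 143 and 126, 146 and 171 and 118 and 115 in KD. WT at 4 h stood lowest, and the strain difference passed the test there alone among the 3 conditions, at 1.13 ± 0.25 (adjusted p = 0.0101). For Mcm7 signals were 162 and 141 without LPS, 142 and 168 after 1 h and 86.3 and 102 after 4 h in WT, against 222 and 169, 187 and 243 and 159 and 186 in KD. It too was called at 4 h (0.85 ± 0.20, adjusted p = 0.0156) and not without LPS (0.35 ± 0.20) or at 1 h (0.45 ± 0.20). For Mcm3 signals were 228 and 234 without LPS, 313 and 263 after 1 h and 209.9 and 168 after 4 h in WT, against 237 and 278, 451 and 489 and 243 and 203 in KD. Its strain difference was called at 1 h (0.70 ± 0.16, adjusted p = 0.0414), when the KD arrays stood far above the other groups. For Mcm4 signals were 1580.3 and 1426 without LPS, 1670.2 and 1739 after 1 h and 1197 and 1350 after 4 h in WT, against 1436 and 1509.7, 2414 and 2379.7 and 1727 and 1551 in KD. The KD arrays at 1 h were the highest, and the strains overlapped without LPS. It differed by 0.49 ± 0.10 at 1 h and 0.36 ± 0.10 at 4 h, both called, and by -0.03 ± 0.10 without LPS. Other probe sets added some calls and lost others. The dimmer one of Mcm4 was called higher in KD without LPS (0.60 ± 0.15, adjusted p = 0.0225) and at 4 h (0.58 ± 0.15). So were 1 of 3 of Mcm7 without LPS (0.79 ± 0.22, adjusted p = 0.0414) and 1 of 4 of Mcm3 at 4 h (0.75 ± 0.20, adjusted p = 0.0336). With probe sets that have no suffix for cross-hybridisation, the calls of Mcm2 at 4 h and of Mcm3 and Mcm4 at 1 h were lost.

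Among the proteins that turn the ring into a working helicase, Gins1 and Gins2 are subunits of GINS. Gins1 was higher in KD at 1 h (0.95 ± 0.20, adjusted p = 0.0252) and 4 h (0.89 ± 0.20, adjusted p = 0.0129), and its values by array are given with the LPS response. Gins2 was called at 4 h (0.97 ± 0.26, adjusted p = 0.0346), but its other probe set, which was dim, had a difference of -0.01 ± 0.83 there. Cdc45, the third part of the active helicase, differed by -0.39 ± 0.34, 0.01 ± 0.34 and 0.06 ± 0.34, and Mcm10, which helps to open the origin, by 0.73 ± 0.55, 0.74 ± 0.55 and 0.40 ± 0.55. Neither passed the test in any condition, and the error of Mcm10, a low gene, was wide.

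Rrm2 had the largest strain difference of the 33 genes at 4 h. For Rrm2 signals were 765 and 883 without LPS, 988 and 887 after 1 h and 434 and 543 after 4 h in WT, against 1856 and 1975, 2271 and 2739 and 1986 and 1780.3 in KD. Every KD array was above every WT array, and on the log2 scale the gap of this probe set was widest at 4 h. The differences were 1.22 ± 0.12 (adjusted p = 1.57e-05), 1.41 ± 0.12 (adjusted p = 4.38e-06) and 1.94 ± 0.12 (adjusted p = 2.14e-08), the last being 3.85-fold. A second probe set of Rrm2 was called higher in KD in all 3 conditions as well, by 1.74 ± 0.22, 1.55 ± 0.22 and 1.66 ± 0.22.

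The other nucleotide genes followed in part. Tk1 encodes thymidine kinase 1, which salvages thymidine. For Tk1 signals were 24.6 and 33.9 without LPS, 37.1 and 56.3 after 1 h and 38.7 and 36.4 after 4 h in WT, against 105 and 91, 116 and 118 and 65.2 and 87.6 in KD. All KD arrays were above all WT arrays, and the difference was called without LPS (1.62 ± 0.28, adjusted p = 0.00245) and at 1 h (1.28 ± 0.28, adjusted p = 0.0335), with 0.93 ± 0.28 at 4 h (adjusted p = 0.0652). Rrm1, the large subunit of ribonucleotide reductase, was called at 4 h (0.85 ± 0.24, adjusted p = 0.0492). Of 9 alternatives besides leaving out an array, 6 lost this call. Tyms, which makes thymidylate, and Dut, which removes dUTP, were called in no comparison, and Tyms was above the array median on 7 of the 12 arrays.

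**Figure D2:**
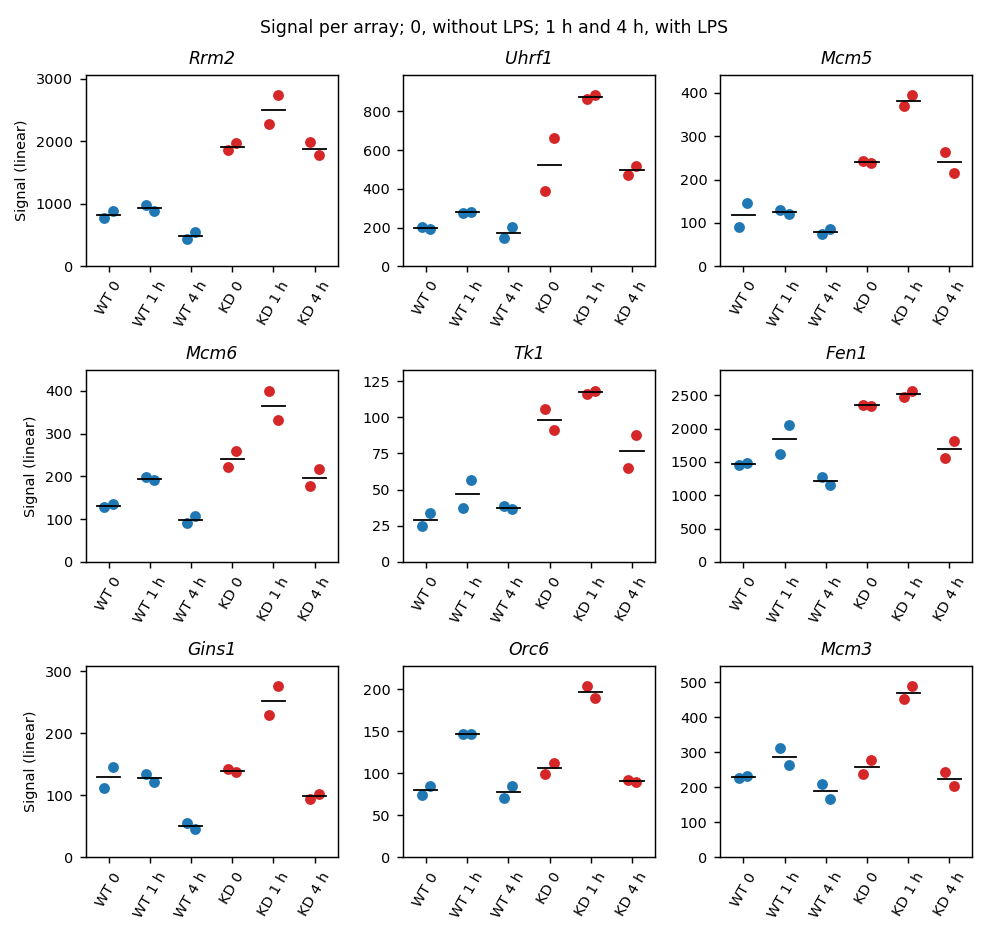
Linear signal of Rrm2, Uhrf1, Mcm5, Mcm6, Tk1, Fen1, Gins1, Orc6 and Mcm3 on the 12 arrays, 1 panel per gene with its own axis from 0, where each point is 1 array (blue, WT; red, KD), each bar the mean of a group, and 0, 1 h and 4 h stand for no LPS and for LPS of that length. The 6 KD points of Rrm2 sit between 1780.3 and 2739, all above the 6 WT points, which sit between 434 and 988.

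At the fork, Fen1, the nuclease that trims Okazaki fragments, and Lig1, the ligase that seals them, were higher in KD. For Fen1 signals were 1453 and 1476 without LPS, 1622 and 2058 after 1 h and 1277 and 1149.6 after 4 h in WT, against 2359.6 and 2341, 2468 and 2570.1 and 1564 and 1817 in KD. Both KD arrays were above both WT arrays in each condition, and the differences were 0.68 ± 0.11 (adjusted p = 0.00107), 0.46 ± 0.11 (adjusted p = 0.0458) and 0.47 ± 0.11 (adjusted p = 0.0132). Lig1 had 0.67 ± 0.20, 0.85 ± 0.20 and 0.88 ± 0.20, called at 1 h and 4 h. Of 9 alternatives besides leaving out an array, 4 lost the call of Fen1 at 1 h and 5 that of Lig1. Each of these 1 h calls was also lost in most fits without 1 array.

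Pcna, the sliding clamp, went another way. For Pcna signals were 2132 and 2129 without LPS, 2352 and 3032 after 1 h and 2162 and 2094 after 4 h in WT, against 2711 and 2835, 2685 and 2686 and 2060.2 and 2149.6 in KD. The strain difference was called without LPS (0.38 ± 0.10, adjusted p = 0.0303) and was 0.01 ± 0.10 at 1 h and -0.02 ± 0.10 at 4 h, where the strains' arrays overlapped. The primase subunit Prim1, the polymerase subunit Pola1, the clamp loader subunits Rfc3 and Rfc4 and the single-strand binding subunit Rpa2 were called in none of the 3 strain comparisons. Their 15 differences lay between -0.03 ± 0.32 (Rfc3 at 1 h) and 0.74 ± 0.25 (Pola1 at 4 h).

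Of the genes that mark and license origins, Cdt1, which loads the helicase with Cdc6, was called higher in KD at 1 h (0.53 ± 0.12, adjusted p = 0.0352) and 4 h (0.54 ± 0.12, adjusted p = 0.0107). Both calls were lost with another probe set of Cdt1, which has no suffix for cross-hybridisation. Over all alternative fits the differences ranged from 0.47 to 0.73 at 1 h and from 0.25 to 0.61 at 4 h. The origin recognition subunits Orc1 and Orc6 and the loader Cdc6 were called in none of the 3. Cdc6 was low and variable, with differences of 0.89 ± 0.47, 1.17 ± 0.47 and 0.44 ± 0.47.

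Uhrf1 followed the pattern of Rrm2 and Mcm5. For Uhrf1 signals were 204 and 194 without LPS, 277 and 280.3 after 1 h and 145 and 201 after 4 h in WT, against 386 and 664, 863 and 885 and 473 and 520.4 in KD. All KD arrays lay above all WT arrays, although unstimulated KD replicates differed widely from each other. The differences were 1.33 ± 0.19 (adjusted p = 0.00053), 1.63 ± 0.19 (adjusted p = 0.000132) and 1.51 ± 0.19 (adjusted p = 7.46e-05). A second, dim probe set of Uhrf1 gave 0.77 ± 0.64, 0.08 ± 0.64 and 0.62 ± 0.64, not called.

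Chaf1b, a subunit of the assembly factor that places histones on new DNA, was low. For Chaf1b signals were 2.9 and 8.3 without LPS, 11.2 and 56.2 after 1 h and 14.5 and 4.4 after 4 h in WT, against 25 and 62.2, 56.2 and 39.1 and 43.6 and 37.4 in KD. Several WT values were below the array median, and the call without LPS (2.20 ± 0.62, adjusted p = 0.044) rested on WT values of 2.9 and 8.3. Slbp, which binds the stem-loop of histone mRNAs, differed by at most 0.28 ± 0.10 and was not called. Of the regulators of S phase entry, the E-type cyclins Ccne1 (0.85 ± 0.23) and Ccne2 (1.02 ± 0.27) were called higher in KD at 4 h, and the transcription factor E2f1 was not called, with 0.02 ± 0.15, 0.19 ± 0.15 and 0.40 ± 0.15. A dimmer probe set of E2f1 was called higher in KD at 4 h (1.24 ± 0.35, adjusted p = 0.0469).

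**Figure D3:**
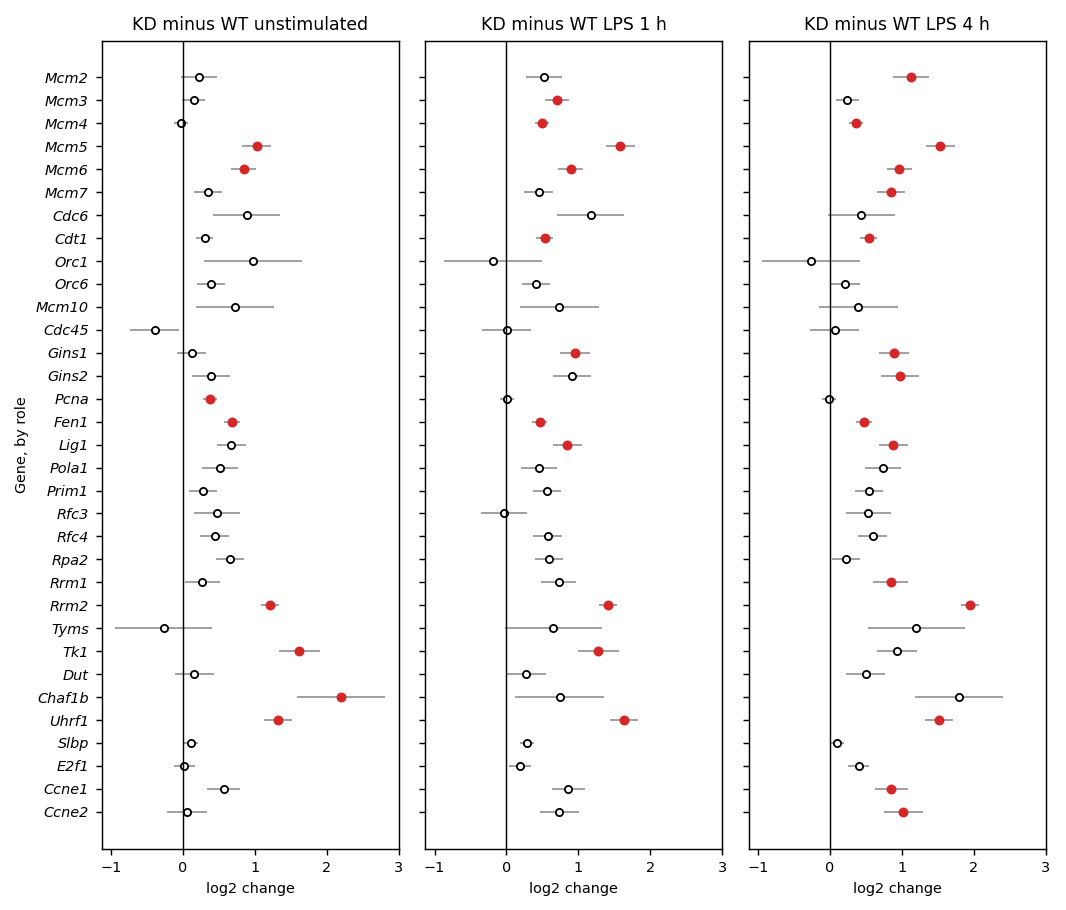
Log2 difference between KD and WT (points) with its standard error (bars) for each of the 33 genes, ordered by role, without LPS, at 1 h and at 4 h of LPS; red points passed an adjusted p under 0.05 and open points did not. The differences lie above 0 for 30, 31 and 31 genes, and that of Rrm2 at 4 h is 1.94 ± 0.12.

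Calls between the strains depended on single arrays in part, beside the variance setting given with the counts. Calls of Rrm2 and Uhrf1 in all 3 conditions, of Mcm5 at 1 h and 4 h and of Fen1 without LPS held in each of the 12 fits that left out 1 array. The count in unstimulated cells was 3 with replicate 1 of WT left out and 5 with replicate 2 of KD left out. The count at 1 h was 3 with replicate 1 of either strain at 1 h left out, 4 with replicate 2 of KD, 5 with replicate 2 of WT and 7 with either KD array of the 4 h group. At 4 h it was 4 with replicate 2 of KD left out, 5 with replicate 1 of KD and 6 with replicate 1 of WT. The called genes with further tested probe sets had 7, 14 and 17 such sets in the 3 conditions. Of these 7, 13 and 16 differed in the same direction, 1, 2 and 6 were themselves called higher and 0 were called lower. Over all 31 further probe sets of the replication genes 3, 2 and 8 were called higher and 0 lower.

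After 1 h of LPS few replication genes had changed in WT, and several had risen in KD. In WT 1 of 33 genes rose and 0 fell, against 6.12% of all tested probe sets (2.89% up and 3.23% down), and the median log2 change of the 33 was 0.17 against -0.03 over all probe sets. In KD 6 rose and 0 fell, against 5.47% of all tested probe sets (3.17% up and 2.29% down), and the medians were 0.27 and -0.01. Changes were above 0 for 21 genes in WT and 29 in KD, against 46.7% and 49.4% of all probe sets. With a variance shared without regard to mean signal, the counts were 1 and 2, beside 1.74% and 1.81% of all probe sets.

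The gene that rose in WT was Orc6, which encodes the smallest subunit of the origin recognition complex. For Orc6 signals were 74.3 and 85.1 without LPS, 146 and 147 after 1 h and 71.1 and 85.3 after 4 h in WT, against 98.9 and 113, 204 and 190.1 and 92.4 and 89.7 in KD. In both strains the arrays at 1 h stood above those without LPS and at 4 h, and the rises at 1 h were 0.85 ± 0.20 in WT (adjusted p = 0.0136) and 0.87 ± 0.20 in KD (adjusted p = 0.0123). Prim1 had the largest rise in KD. For Prim1 signals were 119 and 131 without LPS, 212 and 188 after 1 h and 104 and 103 after 4 h in WT, against 134 and 174, 269.7 and 329 and 129.8 and 178 in KD. The rise was 0.95 ± 0.20 in KD (adjusted p = 0.00582), and the WT change of 0.66 ± 0.20 did not pass the test (adjusted p = 0.0555). The other probe set of Prim1 changed by 0.23 ± 0.22 in KD and was not called.

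Mcm3 rose in KD by 0.86 ± 0.16 (adjusted p = 0.00265) and Mcm4 by 0.70 ± 0.10 (adjusted p = 0.00011). Their changes in WT were 0.31 ± 0.16 and 0.18 ± 0.10, not called. The second probe set of Mcm4, however, rose in both strains, by 0.70 ± 0.15 in WT (adjusted p = 0.0064) and 0.67 ± 0.15 in KD (adjusted p = 0.00912). That of Fen1, whose brighter set was called in neither strain, rose in WT (0.69 ± 0.18, adjusted p = 0.0313) and had 0.49 ± 0.18 in KD. Gins1 (0.83 ± 0.20) and Uhrf1 (0.78 ± 0.19) completed the 6. The KD count was 2 with unstimulated replicate 1 or 1 h replicate 2 left out and 3 with 1 h replicate 1 left out. In WT, 0 genes were called with unstimulated replicate 1 or 1 h replicate 2 left out, 3 with 1 h replicate 1 left out, and 2 with either unstimulated KD array or replicate 1 of KD at 4 h left out. In KD the summed stromal signal also rose with LPS, from 1254 to 1585 without it to 2068 to 2567 at 1 h, and its part in the result was not tested.

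**Figure D4:**
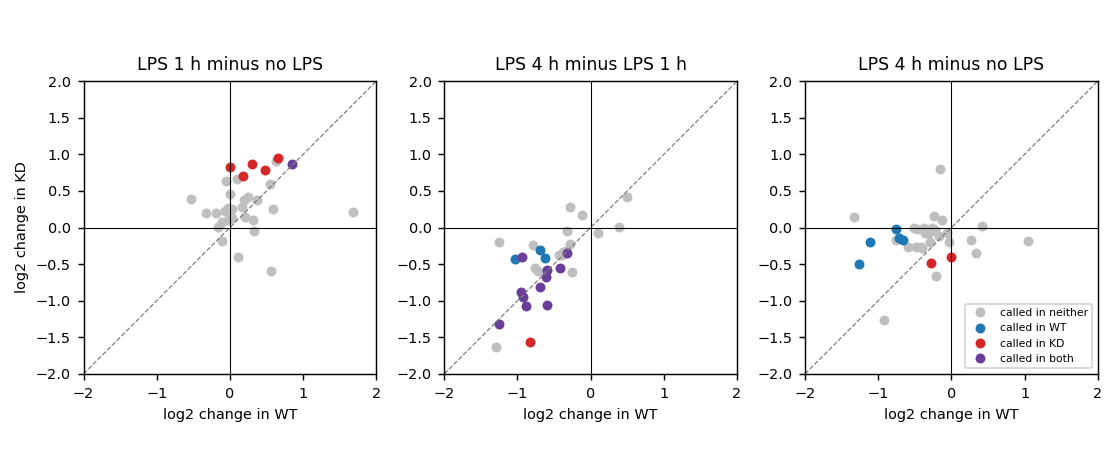
Log2 change with LPS in WT (horizontal axis) against that in KD (vertical axis), 1 point per replication gene, for 1 h against no LPS, 4 h against 1 h and 4 h against no LPS; the colour gives the strain in which the change was called, and the dashed line marks equal changes. At 4 h against 1 h the changes lie below 0 for 30 genes in WT and 29 in KD. Of all probe sets, 56.4% and 54.6% lie below 0 there. The panels share arrays within a strain.

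Between 1 h and 4 h of LPS 14 of the replication genes fell in WT and 12 in KD, and none rose. The 14 of 33 in WT stand beside 15.8% of all tested probe sets (7.1% up and 8.74% down), and the 12 of 33 in KD beside 8.43% (4.55% up and 3.88% down). With a variance shared without regard to mean signal, 8 and 5 fell, beside 9.78% and 3.44% of all probe sets. The median log2 change of the 33 genes was -0.60 in WT and -0.41 in KD, against -0.08 and -0.05 over all probe sets. Mcm3, Mcm4, Mcm5, Mcm6, Pcna, Rrm2, Gins1, Uhrf1, Fen1, Prim1 and Orc6, 11 genes in all, fell in both strains, as did 2.86% of all probe sets.

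Gins1 had the largest called fall in WT. For Gins1 signals were 112 and 146 without LPS, 135 and 121 after 1 h and 56.1 and 46.2 after 4 h in WT, against 142 and 138, 229.7 and 276 and 94.6 and 102 in KD. WT arrays at 4 h were the lowest of all, and the KD arrays at 1 h the highest. From 1 h to 4 h the gene fell by 1.26 ± 0.20 in WT (adjusted p = 0.000196) and by 1.32 ± 0.20 in KD (adjusted p = 0.000262). All 6 subunits of the helicase ring fell in WT, by 0.42 ± 0.10 (Mcm4) to 1.03 ± 0.25 (Mcm2), and Mcm3, Mcm4, Mcm5 and Mcm6 fell in KD, by 0.55 ± 0.10 (Mcm4) to 1.06 ± 0.16 (Mcm3). Mcm2 (-0.43 ± 0.25) and Mcm7 (-0.30 ± 0.20) were not called in KD. The calls of Mcm5 depended on the setting. Of 9 alternatives besides leaving out an array, 7 lost its call in WT and 5 that in KD. Over all fits its change ranged from -0.72 to -0.14 in WT and from -0.84 to -0.52 in KD.

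Rrm2 fell by 0.94 ± 0.12 in WT (adjusted p = 1.93e-05) and by 0.41 ± 0.12 in KD (adjusted p = 0.048). Prim1 fell by 0.93 ± 0.20 and 0.95 ± 0.20, Orc6 by 0.88 ± 0.20 and 1.08 ± 0.20, Uhrf1 by 0.69 ± 0.19 and 0.81 ± 0.19, Fen1 by 0.59 ± 0.11 and 0.58 ± 0.11 and Pcna by 0.33 ± 0.10 and 0.35 ± 0.10, in WT and KD in that order. For E2f1 signals were 203 and 208 without LPS, 255 and 236 after 1 h and 160.1 and 154 after 4 h in WT, against 206 and 212, 274 and 286 and 208 and 209 in KD. WT arrays at 4 h were its lowest, and it fell by 0.63 ± 0.15 in WT (adjusted p = 0.00566) and was not called in KD (-0.42 ± 0.15). Cdc6 fell in KD by 1.57 ± 0.47 (adjusted p = 0.0429). For Cdc6 signals were 12.9 and 18.6 without LPS, 26.7 and 26.1 after 1 h and 15.3 and 10.8 after 4 h in WT, against 51.6 and 19.9, 54 and 78.1 and 21.7 and 16.6 in KD. On 5 of the 12 arrays it exceeded the median.

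The fall in WT was called in all 12 fits without 1 array for Gins1, Mcm6, Rrm2, Fen1, Prim1 and E2f1, and that in KD for Gins1, Mcm3, Mcm4 and Orc6. The WT count was 8 with replicate 1 of the 4 h group left out. The KD count was 4 with replicate 1 of the 4 h group left out, and 6 and 7 with replicate 2 and replicate 1 of the 1 h group left out. Of 20 further probe sets of the genes called in WT, 18 changed in the same direction, 9 of them called, and of 14 in KD 12 did, 5 of them called. None was called the opposite way. Stromal sums fell in WT over the same interval, from 2881 to 2965 down to 2072 to 2288, and not in KD, and their part in the WT result was not tested.

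Against unstimulated cells, 4 h of LPS lowered 5 genes in WT and 2 in KD. In WT 5 of 33 fell and 0 rose against 17.1% of all tested probe sets (6.95% up and 10.2% down), so the share of called genes, 15.2%, was near the background. The median change was -0.31 against -0.12 over all probe sets. Below 0 were 29 of the 33 changes, against 59.6% of those of all probe sets. In KD 2 fell and 0 rose, a share of 6.06% against 10% of all tested probe sets (5.3% up and 4.7% down), and the medians were -0.17 and -0.05. With a variance shared without regard to mean signal, 3 and 0 fell, beside 11.3% and 4.75% of all probe sets. This comparison shares its arrays with the 1 h and the 1 h to 4 h comparisons of the same strain.

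In WT the 5 genes were Gins1, which fell by 1.26 ± 0.20 (adjusted p = 0.00016), Mcm2 by 1.11 ± 0.25 (adjusted p = 0.00346), Rrm2 by 0.75 ± 0.12 (adjusted p = 0.000183), Rrm1 by 0.72 ± 0.24 (adjusted p = 0.0498) and Mcm7 by 0.66 ± 0.20 (adjusted p = 0.026). For Rrm1 signals were 103 and 100.2 without LPS, 86.9 and 118 after 1 h and 62.3 and 57.8 after 4 h in WT, against 154 and 98.2, 203 and 144 and 114 and 109 in KD. WT arrays at 4 h were its lowest. Of 9 alternatives besides leaving out an array, 6 lost the call of Rrm1. The second probe set of Rrm2, however, changed by -0.07 ± 0.22 in WT over 4 h (adjusted p = 0.884), unlike the first. The WT count was 2 with unstimulated replicate 2 or 4 h replicate 1 left out. In KD, Fen1 fell by 0.48 ± 0.11 (adjusted p = 0.00658) and Pcna by 0.40 ± 0.10 (adjusted p = 0.013). The KD count was 0 with replicate 1 of the 4 h group left out, and 1 with its replicate 2 or unstimulated replicate 2 left out.

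The difference between the strains' responses, KD response minus WT response, was tested directly. At 1 h 0 of the 33 genes were called by limma where 0.326% of probe sets were (0.175% higher and 0.15% lower), 0 were called under any alternative setting, and 4 had an unadjusted p under 0.05. These were Gins1 (0.83 ± 0.29, 95% interval 0.23 to 1.44), Mcm3 (0.55 ± 0.23, 0.07 to 1.04) and Mcm4 (0.52 ± 0.14, 0.23 to 0.80), with the larger rise in KD, and Pcna (-0.37 ± 0.14, -0.66 to -0.08), with the larger rise in WT. With adjusted p of 0.113 to 0.366, the 1 h responses of these genes are not shown to differ. Second probe sets gave -0.026 ± 0.21 for Mcm4 and 0.056 ± 0.46 for Gins1. For Uhrf1, called in KD alone at 1 h, the interval was -0.27 to 0.88.

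At 4 h 1 of the 33 genes was called, where 3.07% of probe sets were, 1.88% higher and 1.19% lower. Rrm2 had a fall in WT (-0.75 ± 0.12) and a change of -0.03 ± 0.12 in KD, a difference of 0.73 ± 0.17 (95% interval 0.36 to 1.10, adjusted p = 0.0276). Its second probe set gave -0.081 for the same quantity (adjusted p = 0.941), so the call holds for 1 of the 2 probe sets. It was also lost with either unstimulated WT array, unstimulated KD replicate 1, or replicate 1 of either strain at 4 h left out, and with a variance shared without regard to mean signal. A dimmer probe set of Mcm3 was called at 4 h (1.18 ± 0.28, adjusted p = 0.0274), and the one used had 0.09 ± 0.23. Mcm2 (0.17 to 1.64), Gins1 (0.16 to 1.37), Ccne2 (0.15 to 1.78) and Mcm4 (0.11 to 0.68) had intervals above 0 and Pcna (-0.69 to -0.10) below 0, none past the adjusted threshold. For Mcm5 the interval was -0.09 to 1.10, for Mcm6 -0.40 to 0.63 and for Uhrf1 -0.39 to 0.77, so log2 differences in response of up to those bounds cannot be told from 0.

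A total of 10 genes, Cdc45, Dut, Mcm10, Orc1, Pola1, Rfc3, Rfc4, Rpa2, Slbp and Tyms, were called in none of the 11 comparisons. They included 3 of the 5 low genes. Slbp had small errors, and its changes lay between -0.16 ± 0.10 and 0.28 ± 0.10, whereas the strain differences of Orc1 had errors of 0.68.

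Of the other replication factors, 48 of a list of 51 were tested (further polymerase, primase, replication factor C, GINS and origin subunits, checkpoint and chromatin factors). In KD against WT 4 were called higher without LPS, 2 at 1 h and 9 at 4 h, with 0 lower in each, beside 2.37%, 0.573% and 3.13% of all probe sets called higher. The list medians were 0.33, 0.30 and 0.45. Pclaf, which encodes a partner of Pcna, led without LPS and at 1 h. For Pclaf signals were 49.3 and 82.8 without LPS, 44.9 and 49.1 after 1 h and 49.1 and 58.6 after 4 h in WT, against 220 and 239, 204 and 157 and 203 and 190.4 in KD. All its KD arrays were above all WT arrays, and the differences were 1.77 ± 0.24, 1.84 ± 0.24 and 1.79 ± 0.24. At 4 h Dscc1, a subunit of an alternative clamp loader, had 2.14 ± 0.57 and Clspn, a checkpoint mediator at the fork, 1.55 ± 0.33.

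The called changes of these factors with 4 h of LPS were all falls, against either earlier group. From 1 h to 4 h 15 fell in WT and 9 in KD, beside 8.74% and 3.88% of all probe sets, and at 4 h against no LPS 16 and 6 fell, beside 10.2% and 4.7%, with 0 higher in each. The 16 of 48 at 4 h in WT compare with 5 of 33 of the main list. At 4 h against no LPS the largest falls in WT were those of Gmnn (-1.90 ± 0.19), which encodes geminin, the inhibitor of Cdt1, of Dnmt1 (-1.11 ± 0.10), the maintenance DNA methyltransferase, and of Clspn (-1.10 ± 0.33). In KD they were those of Chtf18 (-2.16 ± 0.56), another subunit of the alternative clamp loader, Recql4 (-1.65 ± 0.49), a helicase, and Gmnn (-1.16 ± 0.19). From 1 h to 4 h Timeless (-1.79 ± 0.52), a fork protection factor, led in WT, and Recql4 (-1.72 ± 0.49) in KD. Dck, a deoxynucleoside kinase, responded differently in the strains, with a KD minus WT response of 0.82 ± 0.17 at 1 h (adjusted p = 0.0497) and 0.76 ± 0.17 at 4 h (adjusted p = 0.0211).

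Regulators upstream of the genes were mixed. Of 20 tested E2F, retinoblastoma and CDK2 genes, 4, 1 and 2 were called higher in KD in the 3 conditions and 0 lower, with the same background shares as above and medians of 0.15, 0.25 and 0.27. E2f7, a repressive E2F, had 1.97 ± 0.53 without LPS and Ccna2, cyclin A2, 1.75 ± 0.47. At 1 h the gene called was E2f8 (1.13 ± 0.24), a relative of E2f7, and at 4 h Ccna2 led with 2.86 ± 0.47. Over 4 h of LPS 2 rose and 5 fell in WT (6.95% and 10.2% of all probe sets), and 1 rose and 2 fell in KD (5.3% and 4.7%). E2f2, an activating E2F, fell by 2.13 ± 0.53 in WT and fell by 2.52 ± 0.53 in KD. Tfdp2, a dimer partner of E2F proteins, had -1.497 ± 0.20 and -0.67 ± 0.20, and E2f5, a repressive E2F, rose by 0.84 ± 0.21 and 0.94 ± 0.21.

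Of the 13 genes of the list of D-type cyclins and CDK inhibitors, 3 were called higher and 1 lower in KD without LPS, 1 higher at 1 h and 2 higher at 4 h (2.37% and 2.87%, 0.573% and 3.13% of all probe sets), and the medians were -0.02, 0.02 and 0.20. Ccnd1, cyclin D1, was higher in KD in all 3 conditions (0.80 ± 0.10, 0.56 ± 0.10 and 1.39 ± 0.10). Without LPS it was followed by Cdk4 (0.48 ± 0.11), its kinase partner, and by the inhibitor Cdkn1b (-0.38 ± 0.11), which was lower in KD. Over 4 h of LPS 3 rose and 5 fell in WT, beside 6.95% and 10.2% of all probe sets. In KD 3 rose and 2 fell, beside 5.3% and 4.7%. Ccnd1 had the largest change in both, -1.88 ± 0.10 and -1.29 ± 0.10, a difference in response of 0.59 ± 0.15 (adjusted p = 0.0327). The other gene called for that difference was Cdkn1a, the CDK inhibitor p21, with -0.58 ± 0.12 (adjusted p = 0.013), from rises of 0.92 ± 0.09 in WT and 0.34 ± 0.09 in KD.

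Of the mitosis genes, 23 of 30 were tested, and 7, 6 and 9 were called higher in KD and 0 lower, beside 2.37%, 0.573% and 3.13% of all probe sets called higher, with medians of 1.00, 0.62 and 1.05. Nusap1, a spindle protein, led without LPS (1.81 ± 0.25) and at 1 h (2.50 ± 0.25), and Bub1, a spindle checkpoint kinase, at 4 h (2.02 ± 0.43). From 1 h to 4 h of LPS 5 fell and 1 rose in WT (8.74% and 7.1% of all probe sets), and 1 fell and 0 rose in KD (3.88% and 4.55%). Mki67, the proliferation marker Ki-67, was the mitosis list gene that rose in WT at 1 h and at 4 h. For Mki67 signals were 31.1 and 67.4 without LPS, 201 and 219 after 1 h and 333 and 322 after 4 h in WT, against 173 and 143, 245 and 214 and 227 and 209 in KD. It rose in WT by 2.08 ± 0.24 at 1 h and 2.72 ± 0.24 at 4 h, and its 4 h response differed between the strains by -2.26 ± 0.34 (adjusted p = 0.00133).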

How the data were processed

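Total RNA of 12 macrophage samples was labelled with the NuGEN Ovation protocol and read on 1-colour arrays, per the labels' protocols. The authors deposited 1 linear intensity for each probe set and array, from MAS5 according to the submitters' processing notes. Its version is not given in the sources used here. The trimmed mean was 150 on every array, so the values were not rescaled. Precision is limited by the number of arrays, not by a depth.

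Of 45101 probe sets, 64 controls were left out, and genes were named only from the 34958 probe sets with 1 symbol in the platform annotation. Signals became log2(signal + 4.4), with 4.4 taken as the 20th percentile over the whole table. Fold changes refer to this scale and are too small for low genes. The 27931 probe sets whose signal exceeded the median of 2 or more arrays entered a linear model with 6 group means (limma 3.58.1, R 4.3.3; empirical Bayes prior with a trend on mean signal). P-values were adjusted by Benjamini-Hochberg within each of 11 comparisons over all tested probe sets. Called means adjusted p under 0.05. The scripts were tested on simulated data. Errors are standard errors of the fit.

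The members, the other lists and the tests were chosen with earlier results of these data known. Values on every array were given for members called within a strain and for up to 3 called members of each other comparison, and from each other list at most 3 called genes per comparison were named, in order of their change; the parts of a called response difference were given with it. Replicate numbers did not pair the arrays: over 15 pairs of groups the correlation of same-numbered deviations was -0.0682 to 0.0401. Alternatives were quantile normalization, no filter and a stricter one (75th percentile), pseudocounts of 1 and 23.4, a variance prior without a trend, only the groups compared, a replicate block, probe sets without a suffix for cross-hybridisation, and each array left out. Promoter windows came from RefSeq (GRCm38.p6).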

Additional observations from a re-analysis of the deposited data

Results flagged for a closer look

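The LPS responses of the strains were called different at 4 h for 1 of the 33 genes, where 3.07% of all probe sets were. It was Rrm2, the small subunit of ribonucleotide reductase. The difference was 0.73 ± 0.17 on the log2 scale (KD response minus WT response, limma adjusted p = 0.0276). The test was of the difference itself. WT replicates lay at 765 and 883 without LPS and 434 and 543 at 4 h, and KD replicates at 1856 and 1975 without LPS and 1986 and 1780.3 at 4 h. The second probe set of Rrm2 gave -0.081 (adjusted p = 0.941), so the call rests on the brighter probe set. It was also lost in some fits without 1 array.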

How the results depend on the processing

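Of 75 calls of replication genes in the 11 comparisons, 12 were kept in every fit, 23 in all 12 fits without 1 array, and 2 changed sign in the probe sets without a suffix: Gins2 in KD against WT at 4 h (-0.0052, adjusted p = 0.999) and Rrm2 in the difference of the 4 h responses (-0.081, adjusted p = 0.941). With a variance prior without a trend the counts were 3 (WT, 4 h), 8 (WT, 1 h to 4 h), 2 (KD, 1 h), 0 (KD, 4 h), 5 (KD, 1 h to 4 h), 1, 0 and 4 (KD against WT without LPS, at 1 h and at 4 h) and 0 (response difference at 4 h), with the same medians. In WT at 1 h, where 1 gene was called, 2 were called after quantile normalization, at the median pseudocount, in probe sets without a suffix and with the replicate block, and 4 with the stricter filter. The replicate block moved no other count by over 1.5 times. Probe sets without a suffix gave 3 calls in WT at 4 h, 7 in KD against WT at 1 h and 0 for the 4 h response difference. KD against WT at 1 h had 6 calls without a filter and 7 with the arrays of both groups alone. Leaving out 1 array at a time gave 0 to 3 calls (WT, 1 h), 2 to 6 (WT, 4 h), 8 to 16 (WT, 1 h to 4 h), 2 to 7 (KD, 1 h), 0 to 2 (KD, 4 h), 4 to 12 (KD, 1 h to 4 h), 3 to 8, 3 to 11 and 4 to 15 (KD against WT in the 3 conditions) and 0 to 1 (4 h response difference). The cause was not tested in any of these. With 2 arrays a group, a gene not called is not shown to be unchanged.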
